A study of Mus musculus with 6 samples.

Results

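The transforming growth factor beta (TGF-β) ligands, their receptors and their Smad mediators were examined as 1 gene family of 10 genes in the mouse hippocampus. The members were Tgfb1, Tgfb2, Tgfb3, Tgfbr1, Tgfbr2, Tgfbr3, Smad2, Smad3, Smad4 and Smad7, and every probe set whose only gene symbol was one of these was used. This gave 25 probe sets for 10 of the 18193 genes named on the array, out of 34945 probe sets with 1 gene symbol. Hippocampal total RNA came from 6 mice aged 2 to 3 months, 3 per group. The controls had the genotype IκBαfl/-, with 1 floxed and 1 null allele of the gene for IκBα, and their IκBα-deficient littermates had IκBαfl/-;Nestin-Cre. All 6 mice thus already carried a null allele, and a group with Cre and no floxed allele was not analysed here. Nestin-Cre removes the floxed allele in the neural lineage, from which neurons, astrocytes and oligodendrocytes derive, whereas microglia derive from another lineage. The comparison asks which transcripts of the family differ when the remaining IκBα allele is deleted in the neural lineage. IκBα is the inhibitor that holds NF-κB in the cytoplasm.

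TGF-β ligands are secreted in a latent form and become active once released from their latency proteins. The active ligand binds the type II receptor, to which the coreceptor betaglycan presents TGF-β2. The type II receptor then phosphorylates the type I receptor, which in turn phosphorylates Smad2 and Smad3. These join Smad4, move to the nucleus and bind DNA, and Smad7 is an induced inhibitor that closes the loop. In the brain the pathway is known for holding microglia in their resting state and for stabilizing blood vessels, where pericytes and endothelial cells signal to each other through it.

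Values are RMA log2 values, which are relative levels per probe set. Bright and dim describe the signal of a probe set and are no measure of how much of a transcript or gene was present. Each difference is the IκBα-deficient mean less the control mean, in log2 units, and its standard error (SE) comes from limma. The adjusted p is the Benjamini-Hochberg value over all 34945 probe sets, called at 0.05. Array medians lay between 6.08 and 6.13, and correlations between arrays across probe sets between 0.992 and 0.998. Markers of hippocampal neurons, 14 genes, averaged 10.74 to 10.87 on the 6 arrays, with 4 above 0 and 10 below in the difference. The mean of 9 astrocyte markers was 11.18 to 11.22 in controls and 11.24 to 11.30 in deficient animals. Of these 9, 5 had a difference above 0 and 4 below, beside 52.6% of all genes above 0. Arrays did differ in markers of other tissue, and whether the amount of that tissue or its expression differed was not tested. The mean of 11 choroid plexus markers was 5.68 to 7.90 in controls and 7.76 to 8.73 in IκBα-deficient animals, with control array 1 standing beside the deficient arrays. The mean of 14 markers of the meninges was 7.44 to 8.05 in controls and 8.0, 8.99 and 8.01 in deficient animals. On IκBα-deficient array 2 the 3′ probe sets of the Gapdh and actin controls exceeded the 5′ ones by 2.02, against 0.56 to 0.73 on the 5 other arrays. In these bulk samples fewer cells of a type and less RNA per cell cannot be told apart.

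Nfkbia, the targeted gene and itself an NF-κB target, was lower on all 3 deficient arrays in its brightest probe set, at 9.06, 9.13 and 8.66 against 10.39, 10.35 and 10.31 in controls. Of its 5 probe sets, 4 passed the adjusted threshold (limma), and these were the only calls among the 34945 probe sets, or 0.0114%. With 1 array left out in turn 1 to 4 of them passed, 1 without control array 3, 4 without deficient array 3 and 2 without each of the others. Without control array 1 the calls over all probe sets were 7, so others passed beside the 2 of Nfkbia. With any other array left out only Nfkbia probe sets passed. The submitters describe 3 pairs of littermates without saying which animals form a pair, and with the repeat number as a block 2 Nfkbia probe sets and 0 members passed. Whether its probes lie in the deleted part is not known from the labels.

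Promoters of the family bear on an NF-κB comparison, so 250 bases before the start of the gene are shown for the target gene and 2 members. Windows of this kind (RefSeq, GRCm38.p6) were read for 5 of the 10 members, namely Tgfb1, Tgfb2, Tgfbr1, Tgfbr2 and Smad3. They were searched on both strands for the NF-κB consensus, known from NF-κB target genes, and for CAGAC, the core of the Smad binding element, which reads GTCTG on the other strand. Nfkbia is shown as a known NF-κB target and Tgfb1 because it was the 1 member read here with an NF-κB consensus match. Tgfbr2 is shown because it and Tgfbr3 showed the widest differences of the family. Sequences run 5′ to 3′ on the gene's strand. Capitals mark the NF-κB consensus match in Nfkbia (chr12:55492648-55492897, minus strand) and Tgfb1 (chr7:25686752-25687001, plus strand), and CAGAC in Tgfbr2 (chr9:116175364-116175613, minus strand).
Nfkbia: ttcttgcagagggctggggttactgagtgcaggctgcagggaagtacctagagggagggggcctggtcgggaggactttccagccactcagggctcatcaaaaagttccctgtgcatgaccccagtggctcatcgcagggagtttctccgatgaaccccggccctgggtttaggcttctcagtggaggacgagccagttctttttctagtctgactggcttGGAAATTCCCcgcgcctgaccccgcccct
Tgfb1: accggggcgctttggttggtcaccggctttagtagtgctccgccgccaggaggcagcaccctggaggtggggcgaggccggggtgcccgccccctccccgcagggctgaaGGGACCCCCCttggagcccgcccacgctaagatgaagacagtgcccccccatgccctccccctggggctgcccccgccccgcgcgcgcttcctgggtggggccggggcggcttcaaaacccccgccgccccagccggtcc
Tgfbr2: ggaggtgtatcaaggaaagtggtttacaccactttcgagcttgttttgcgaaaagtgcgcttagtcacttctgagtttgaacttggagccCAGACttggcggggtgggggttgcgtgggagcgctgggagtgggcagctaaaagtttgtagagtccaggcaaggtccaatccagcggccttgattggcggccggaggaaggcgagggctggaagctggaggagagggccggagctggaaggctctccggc
The NF-κB match began 29 bases before the gene start in Nfkbia and 140 bases before it in Tgfb1. The Nfkbia window also held 1 CAGAC match, 42 bases before the start. The Tgfbr2 window held no NF-κB match and 1 CAGAC match, 160 bases before the start, the Tgfb2 window held 2 CAGAC matches and 1 of the 2 Tgfbr1 windows held 1. No match of one motif overlapped a match of the other in these windows. Among all 32851 promoter windows of this length, 7.25% held the NF-κB consensus and 42.2% held CAGAC. A match is a description of letters and not a measured binding site.

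None of the 25 probe sets of the family passed the threshold (limma, lowest adjusted p = 0.985), 0 had an unadjusted p under 0.05 in either direction, and a linear model without moderation also gave 0 and 0. Under other settings some unadjusted values fell below it, with adjusted p of 0.917 or more: Tgfbr2 (0.042) and Tgfbr3 (0.049) with a variance trend and robust moderation, Smad2 1442062_at (0.049) without the dimmest 40% of probe sets, and Tgfb2 1450922_a_at (0.041) with the meninges covariate. With 1 array left out, members at an unadjusted p under 0.05 numbered 1 without control array 2, 1 without deficient array 1 and 2 without deficient array 3, the last being Tgfbr2 and Tgfbr3. Over all probe sets 0.0114% were called and 3.82% had an unadjusted p under 0.05, of which higher ones were 2.48% and lower ones 1.34% of all. Differences above 0 were found for 15 of the 25, beside 49.7% of all probe sets. Differences ranged from -0.15 to 0.29 with a median of 0.016, beside a median of -0.00049 over all probe sets, and 20 of the 25 lay within 0.1 of 0. The groups did not overlap for 4 probe sets, 1 each of Tgfbr2, Tgfbr3, Smad2 and Smad7, all higher in deficient animals, beside 8.91% of all probe sets that were separated in either direction and 5.09% that were separated upward. That count was 7 without control array 2, where the smaller group separates more readily and the share over all probe sets was not computed. By the brightest probe set of each gene, 6 of 10 genes lay above 0, 2 were separated and 0 passed the threshold, beside 52.6%, 9.76% and 0.0055% of all 18193 genes. For 22 of the 25 probe sets the 95% interval of the difference stayed within 0.5 of 0, and the other 3 were the brightest of Tgfb1, Tgfbr2 and Tgfbr3. Between animals the family had a median SD of 0.061 in controls and 0.090 in deficient animals, beside 0.087 and 0.11 over all probe sets.

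**Figure D1:**
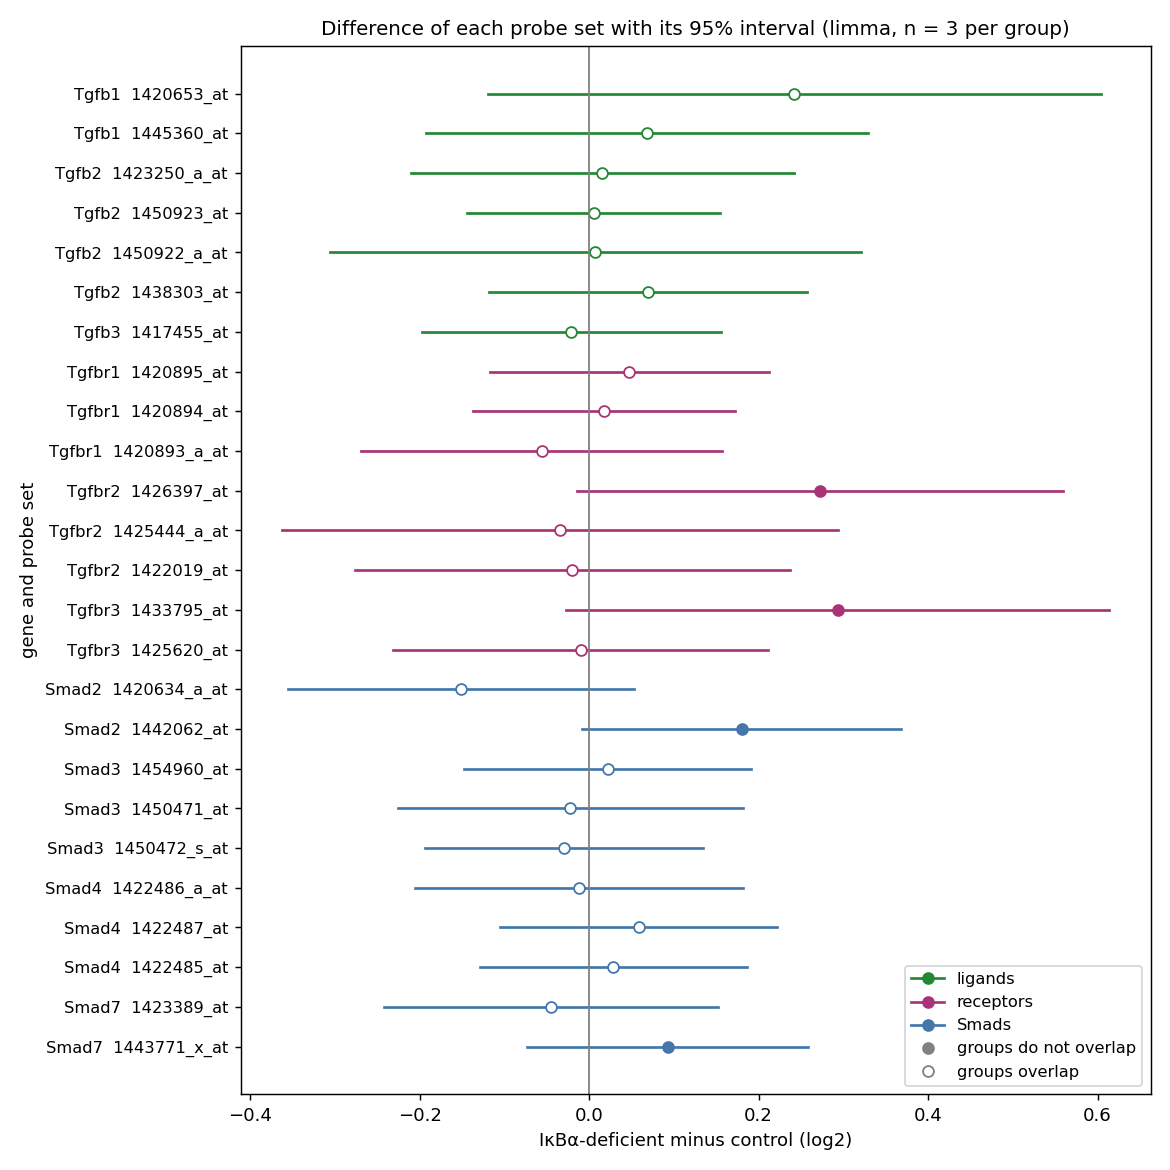
Difference between IκBα-deficient and control arrays for each of the 25 probe sets (points, log2 scale) with its 95% interval from limma (lines), n = 3 per group, coloured by role. Every interval includes 0, the widest differences are those of Tgfbr3 (0.29), Tgfbr2 (0.27) and Tgfb1 (0.24), and 4 filled points mark probe sets whose groups do not overlap.

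Among the 3 ligands, 6 of 7 probe sets had a difference above 0 and none had separated groups. Tgfb1, the ligand known from microglia and vessel cells in the brain, was read at 5.47, 5.84 and 5.18 in controls and at 5.79, 5.65 and 5.78 in deficient animals by its brighter probe set (1420653_at). The deficient arrays lay close together, within the range of a wide control group. Their difference was 0.24 ± 0.16 (SE), 1.18-fold, with a 95% interval of -0.12 to 0.60 (limma adjusted p = 0.985). Control arrays 2 and 3 were the highest and lowest of the 6, and this difference was 0.41 without the former (unadjusted p = 0.0087, limma adjusted p 0.804 to 1 over all alternatives) and 0.084 without the latter. The second Tgfb1 probe set (1445360_at) was dimmer, at 4.34 to 4.55 in controls and 4.31 to 4.70 in deficient animals. Both lie among the dimmest 40% of probe sets, where RMA compresses differences.

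Tgfb2, the ligand prominent in neurons and astrocytes, was bright in all 4 of its probe sets, and these gave nearly the same value in both groups. The brightest (1423250_a_at) read 9.26, 9.24 and 9.56 in controls and 9.39, 9.37 and 9.35 in deficient animals. Here too the deficient arrays fell inside the control range, which control array 3 set. That difference was 0.016 ± 0.097 (SE), with a 95% interval of -0.21 to 0.24. Probe set 1450923_at differed least of all 25, by 0.0054 ± 0.064 (SE), and its 6 values spanned only 8.77 to 8.85. Differences of the other two were 0.0075 and 0.069. Probe set 1450922_a_at was split among deficient animals, at 8.57, 8.27 and 8.73, with array 2 lowest.

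Tgfb3, the third ligand, had 1 probe set (1417455_at), at 6.87, 6.99 and 6.94 in controls and 6.81, 6.95 and 6.97 in deficient animals. The ranges overlapped almost wholly, and the difference was -0.021 ± 0.076 (SE).

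Receptors showed the widest differences of the family, and in both cases 1 deficient array set most of the size. Tgfbr2, the type II receptor that binds the ligand, was read by 1426397_at at 8.47, 8.34 and 8.40 in controls and at 8.59, 8.96 and 8.48 in deficient animals. All 3 deficient arrays lay above all controls, array 3 by only a small margin and array 2 by far the most. Control animals averaged 8.41 ± 0.066 and deficient animals 8.68 ± 0.25 (SD, n = 3). This is a difference of 0.27 ± 0.12 (SE), 1.21-fold, with a 95% interval of -0.015 to 0.56, an unadjusted p of 0.060 and an adjusted p of 0.985 (limma).

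Tgfbr3 encodes betaglycan, the coreceptor that presents TGF-β2 to the type II receptor. Its bright probe set (1433795_at) read 9.46, 9.42 and 9.39 in controls and 9.56, 10.05 and 9.53 in deficient animals. Again the groups were separated, with deficient array 2 well above the other two. The controls were tight at 9.42 ± 0.036, against 9.72 ± 0.29 in deficient animals (SD, n = 3), a difference of 0.29 ± 0.14 (SE) or 1.23-fold (95% interval -0.027 to 0.61, limma adjusted p = 0.985).

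Without deficient array 2 the difference was 0.13 for Tgfbr2 and 0.13 for Tgfbr3, and both groups stayed separated. That array also had the highest marker means for meninges (8.99), pericytes and smooth muscle (8.57 against 7.99 to 8.29 in controls) and endothelium (8.21 against 8.01 to 8.12 in controls). Pericytes, fibroblasts and endothelium are cells in which both receptors are known to be expressed. With the meninges mean as a covariate the difference was 0.11 ± 0.11 (SE) for Tgfbr2 and 0.074 ± 0.097 for Tgfbr3, and with the 3′ to 5′ gap as covariate it was 0.14 and 0.13. The pericyte and smooth muscle mean, a covariate chosen after seeing the data, gave 0.18 and 0.16. Across all alternatives run, the choroid plexus covariate among them, Tgfbr2 ranged from 0.11 to 0.37 and Tgfbr3 from 0.074 to 0.38. Of the 11 pericyte and smooth muscle markers 10 had a difference above 0 and 2 were separated upward. All 14 meninges markers had a difference above 0 and 4 were separated upward, beside 52.6% of all genes above 0 and 5.94% separated upward. The gap was 2.02 on deficient array 2 and 0.56 to 0.73 on the others, so that covariate acts much like leaving this array out. The same array had the highest meninges and pericyte means, so these covariates cannot tell other tissue and RNA quality apart. The part of either in the receptor differences was not tested.

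**Figure D2:**
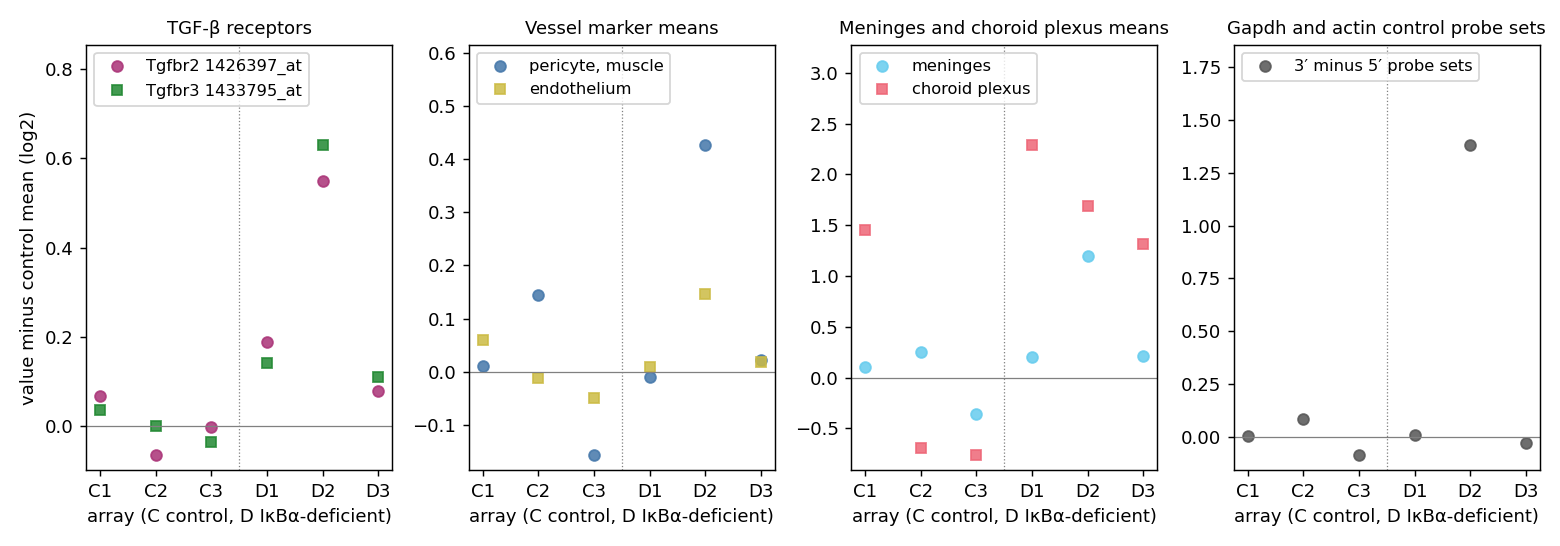
Tgfbr2, Tgfbr3, the marker means of 4 cell types or tissues and the 3′ to 5′ gap of the control genes on each array, each as the value minus its own control mean (log2), with a separate vertical scale per panel; C1 to C3 are controls and D1 to D3 IκBα-deficient. D2 is highest for both receptors, for meninges (8.99 before subtraction), for pericyte and smooth muscle markers (8.57), for endothelium (8.21) and for the gap (2.02), while choroid plexus markers are highest on D1 (8.73).

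Dimmer probe sets of the same receptors did not show these differences. For Tgfbr2, 1425444_a_at differed by -0.035 ± 0.14 (SE) and 1422019_at by -0.020 ± 0.11, and for Tgfbr3, 1425620_at differed by -0.0099 ± 0.095. All 3 lay at or below 5.18 on every array and among the dimmest 40% of probe sets.

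Tgfbr1, the type I receptor kinase, was bright in 1420895_at, at 10.02, 10.06 and 10.12 in controls and 10.12, 10.18 and 10.04 in deficient animals. The ranges overlapped, and array 2 was again the highest of the 6. The difference was 0.047 ± 0.071 (SE), with a 95% interval of -0.12 to 0.21. The other two Tgfbr1 probe sets stayed between 3.70 and 4.01 on all arrays and differed by 0.018 and -0.056.

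Smads, the intracellular mediators, split evenly, with 5 of 10 probe sets above 0 and 5 below. Smad2, which the type I receptor phosphorylates, gave opposite signs in its 2 probe sets. Its brighter one (1420634_a_at), which reads several transcripts of the gene, was at 8.61, 8.58 and 8.68 in controls and 8.60, 8.32 and 8.50 in deficient animals. Deficient array 2 was the lowest and array 1 lay within the controls, and the difference was -0.15 ± 0.088 (SE), 1.11-fold lower, with a 95% interval of -0.36 to 0.052. The dimmer one (1442062_at) was at 7.22, 7.14 and 7.04 in controls and 7.26, 7.41 and 7.25 in deficient animals. Here the groups did not overlap, array 2 was the highest, and the difference was 0.18 ± 0.081 (SE), 1.13-fold, with the lowest unadjusted p of the family, 0.058, and an adjusted p of 0.985 (limma). Without array 2 the pair stood at -0.075 and 0.13, and with the meninges covariate at -0.035 and 0.087, still of opposite sign. Where in the transcript each probe set lies was not analysed here.

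Smad3, the other receptor-activated Smad, was bright in 1454960_at, at 10.50, 10.43 and 10.40 in controls and 10.37, 10.53 and 10.49 in deficient animals. The groups overlapped fully and differed by 0.022 ± 0.073 (SE), with a 95% interval of -0.15 to 0.19. Its 2 dim probe sets differed by -0.022 and -0.030, one of them (1450472_s_at) coded as shared with transcripts of other genes.

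Smad4, the partner common to TGF-β and bone morphogenetic protein (BMP) signals, was read by 3 bright probe sets. The brightest (1422486_a_at) was at 11.20, 11.20 and 11.15 in controls and 11.03, 11.29 and 11.20 in deficient animals. Deficient arrays 1 and 2 were the lowest and the highest of the 6, so the means differed by only -0.012 ± 0.083 (SE). The others differed by 0.058 ± 0.070 (1422487_at) and 0.029 ± 0.068 (1422485_at).

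Smad7, the inhibitor induced by the pathway and also known as an NF-κB-responsive gene, was at 8.48, 8.43 and 8.49 in controls and 8.55, 8.28 and 8.44 in deficient animals by 1423389_at. Array 2 was the lowest and array 1 the highest, and the difference was -0.045 ± 0.085 (SE). A dimmer probe set that may bind other transcripts (1443771_x_at) was at 6.72, 6.66 and 6.68 in controls and 6.72, 6.87 and 6.74 in deficient animals. Its groups were barely separated, with array 2 the highest, and it differed by 0.093 ± 0.071 (SE, limma adjusted p = 0.985), or by 0.044 without that array.

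**Figure D3:**
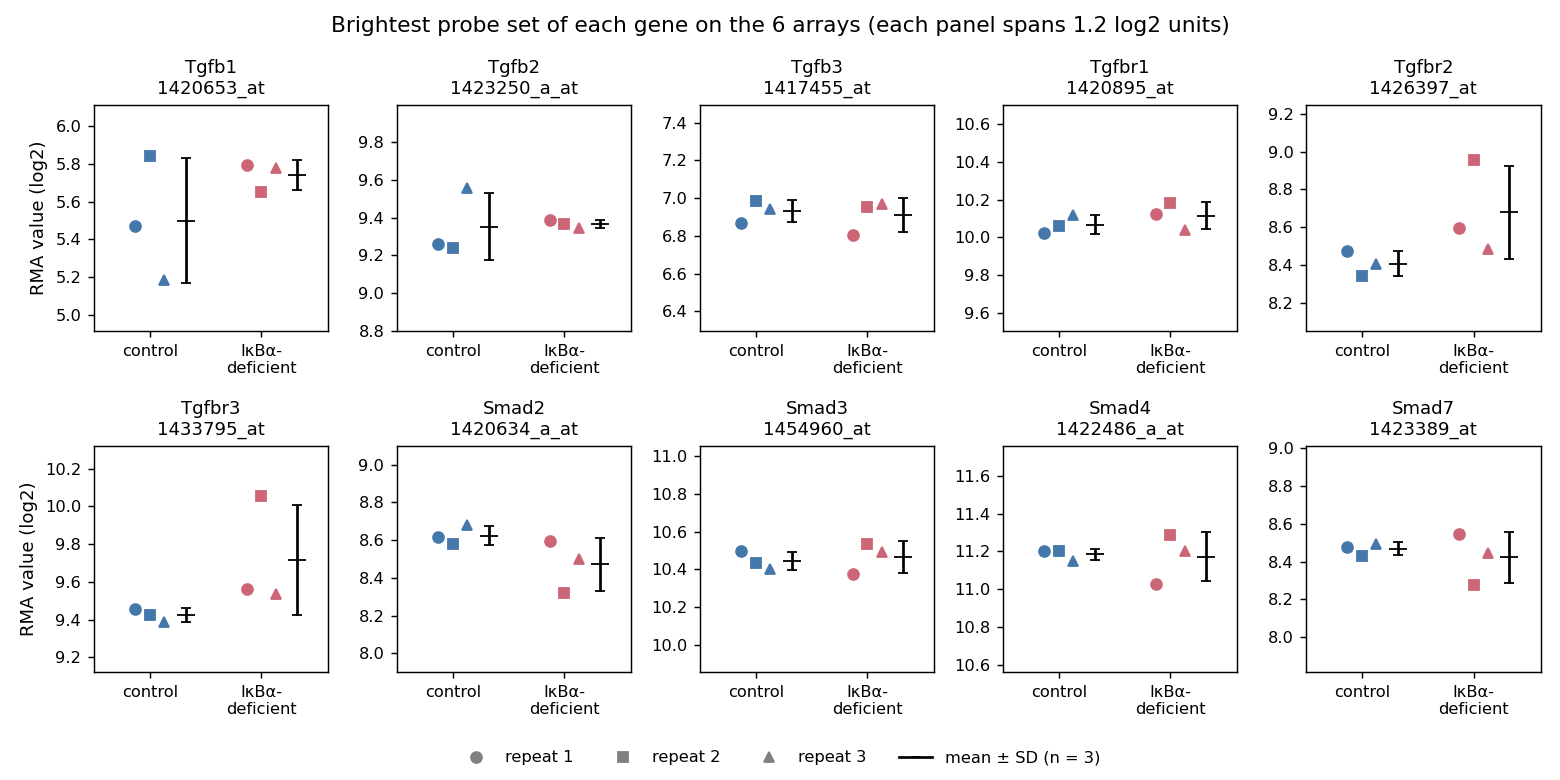
RMA value (log2) of the brightest probe set of each of the 10 genes on the 3 control and 3 IκBα-deficient arrays (points, shaped by repeat number), with mean ± SD beside each group; all panels span the same number of log2 units. Repeat 2 of the deficient group is the highest for Tgfbr2 (8.96) and Tgfbr3 (10.05) and the lowest for Smad2 (8.32) and Smad7 (8.28).

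Deficient array 2 was the extreme of the 6 arrays for 15 of the 25 probe sets, the highest for 10 and the lowest for 5. Over all probe sets it was the highest for 28.1% and the lowest for 20.8%.

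The rest of the pathway was taken from 6 lists of 95 genes, of which 88 had a probe set named here, each gene by its brightest. None of the 88 passed the adjusted threshold (limma, lowest adjusted p = 0.985). An unadjusted p under 0.05 was found for 12 of the 88, or 13.6%, of which 9 were higher and 3 lower, beside 3.95% of all genes (2.79% higher, 1.16% lower), and a model without moderation gave 7 in all. The groups were separated upward for 15 and downward for 4, beside 5.94% and 3.82% of all genes. Deficient array 2 was the highest of the 6 for 46 of the 88 genes, beside 28.1% of all probe sets. The share over all genes by brightest probe set was not computed. Without that array 4 of the 88 genes had an unadjusted p under 0.05, 3 of them higher. That count was 6 without control array 3 and 18 without deficient array 3. Over all probe sets the count at that unadjusted p fell without control array 3 and rose without deficient array 2 or 3. Upward separated genes numbered 23 without control array 1 and 25 without deficient array 3. Smaller groups separate more readily, and the share of all genes separated was not computed with an array left out. Named below are the 3 genes of each list with the smallest p.

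Other ligands of the superfamily were mixed, with 7 of 11 above 0 and a median of 0.022. Inhba, which encodes the activin A subunit and is induced by neuronal activity, was at 8.24, 8.13 and 8.18 in controls and 7.78, 7.79 and 7.99 in deficient animals. It was lower on every deficient array, by -0.33 ± 0.082 (SE), with an unadjusted p of 0.0045 and an adjusted p of 0.985 (limma), while its second probe set had the other sign. Gdf10, a BMP-like factor, was separated downward as well, at 8.65 ± 0.087 against 8.84 ± 0.041 (SD, n = 3), with a difference of -0.12 under the choroid plexus covariate. Bmp6 stood at 7.01, 7.50 and 6.89 in deficient animals against 6.79, 6.76 and 6.16 in controls, a difference of 0.56 ± 0.21 (SE) that was 0.37 without deficient array 2, 0.36 without control array 3 and 0.19 with the meninges covariate.

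Other receptors and Smads, 14 genes, had a median difference of 0.064, with 10 above 0. Smad9, a BMP-activated Smad, was dim at 3.99 ± 0.26 in controls and 4.32 ± 0.15 in deficient animals, a difference of 0.33 that was 0.18 without control array 3 and 0.12 with the meninges covariate. Smad6, the inhibitor of BMP signals, differed by 0.18 ± 0.10 (SE), or 0.11 without control array 2, 0.12 without deficient array 1 and -0.056 with the choroid plexus covariate. The BMP receptor Bmpr1b differed by 0.12 ± 0.087 (SE), or 0.040 without deficient array 2 and 0.041 with the meninges covariate.

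Genes of latency and activation, 11 measured, had a median difference of 0.048, with 8 above 0. Ltbp3, a latent TGF-β binding protein, was at 8.78, 8.59 and 8.51 in controls and 8.90, 9.08 and 8.81 in deficient animals. It was separated by a difference of 0.30 ± 0.10 (SE, unadjusted p = 0.020, limma adjusted p = 0.985), although 2 of its 4 probe sets had the other sign, and the difference was 0.12 with the choroid plexus covariate and 0.18 with the meninges covariate. Nrros, which holds latent TGF-β1 on microglia, was at 7.52, 7.42 and 7.52 against 7.67, 7.74 and 7.52 in deficient animals, so the groups were barely separated. Itgb8, the integrin subunit that releases active TGF-β, differed by 0.16 ± 0.083 (SE), or 0.10 without control array 3 and 0.054 with the choroid plexus covariate.

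Of 23 inhibitors and regulators 18 were above 0, with a median of 0.030. Bambi, a pseudoreceptor that blocks TGF-β signals, was at 7.37 ± 0.14 in deficient animals and 7.63 ± 0.14 in controls, with overlapping groups, and its difference of -0.25 was -0.086 with the choroid plexus covariate and -0.12 with the meninges covariate. Pmepa1, a feedback inhibitor induced by the pathway, differed by 0.13 ± 0.068 (SE), while 1 of its 3 probe sets had the opposite sign. Dcn, the matrix proteoglycan decorin and a meninges marker, differed by 0.19 ± 0.11 (SE), or 0.30 without control array 1, 0.11 without control array 2 and 0.0039 with the choroid plexus covariate.

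Known target genes had a median difference of 0.12, with 14 of 19 above 0 and 4 separated, all upward, beside 52.6% of all genes above 0 and 5.94% separated upward. Tgfbi, a matrix protein named for its induction by TGF-β, was at 7.14, 6.97 and 7.07 in controls and 7.61, 8.0 and 7.30 in deficient animals. All its 4 probe sets had a difference above 0, and this one differed by 0.58 ± 0.16 (SE), 1.49-fold, with an unadjusted p of 0.0086 and an adjusted p of 0.985 (limma). The difference was 0.36 with the meninges covariate. Snai1, a transcription factor induced by TGF-β, was dim at 4.83 ± 0.12 against 4.48 ± 0.27 in controls, a difference of 0.35 that was 0.20 without control array 3 and 0.085 with the choroid plexus covariate. Col1a2, a fibrillar collagen chain, stood at 9.98 on deficient array 2 beside 8.72 and 8.60 on the others and 8.45, 8.53 and 7.84 in controls. Its difference of 0.83 ± 0.36 (SE) was 0.39 without that array and 0.13 with the meninges covariate. Col1a2 is itself among the meninges markers, so that covariate contains its own values and is not independent of it. Of these 19 genes 4 are also in the meninges or pericyte marker lists.

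Microglial genes that need TGF-β for their expression had a median difference of 0.12, with 6 of 10 above 0. Gpr34, a microglial receptor, was at 6.70, 7.06 and 6.85 in controls and at 7.29, 7.27 and 7.29 in deficient animals. That is 0.41 ± 0.098 (SE), 1.33-fold, with an unadjusted p of 0.0034 and an adjusted p of 0.985 (limma), and it was 0.42 without deficient array 2 and 0.40 with the meninges covariate. P2ry13, a purinergic receptor, was separated too, at 8.50 ± 0.031 against 8.27 ± 0.058. Mertk, the phagocytic receptor kinase, was separated downward, at 9.26, 9.21 and 9.27 against 9.35, 9.39 and 9.46. A list of 10 general microglia markers, which shares 3 genes with this one, had a median difference of 0.0058. Its mean was lowest on deficient array 2 (8.67 against 8.89 to 9.10 on the others). On deficient arrays 1 and 3 that mean was 9.02 and 9.10, above every control. The mean of the TGF-β-dependent list also lay above every control on arrays 1 and 3, at 8.44 and 8.41, with 8.29 on array 2. Whether the lists differ from each other was not tested.

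**Figure D4:**
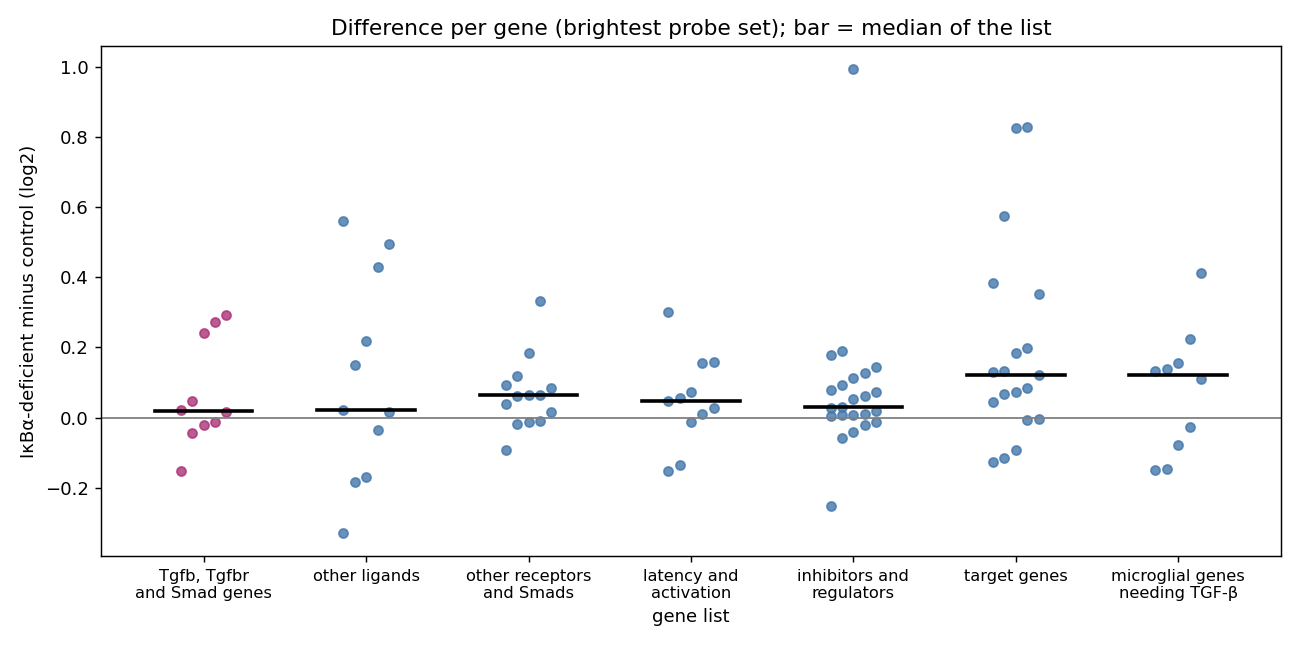
Difference between IκBα-deficient and control arrays (log2) for each gene of the family and of 6 pathway lists, each by its brightest probe set, with the list median as a bar. The medians are 0.019 for the 10 family genes, 0.022, 0.064, 0.048 and 0.030 for the next 4 lists, and 0.12 for target genes and for microglial genes, and no gene shown passed the adjusted threshold.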

How the data were processed

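Hippocampal RNA of 3 control and 3 IκBα-deficient mice was measured on 6 Affymetrix arrays. The deposited values are on the log2 scale and were made with RMA by the authors, per the submitters' processing notes. Its version is not given in the sources used here. RMA subtracts background, equalizes distributions between arrays and summarises each probe set, which compresses low values and hides shifts common to all genes. Arrays have no read depth, and their number limits the precision.

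Of 45101 probe sets, 64 controls were left out, and the array annotation held by GEO, dated and possibly outdated, gave 34945 with 1 gene symbol, 932 with several and 9160 with none here. By Entrez identifier 34741 matched RefSeq, and 0 symbols changed. These 34945 were fitted with limma 3.58.1 in R 4.3.3 (lmFit, eBayes, genotype only, two-sided), with Benjamini-Hochberg adjustment over all of them. The labels call the arrays biological repeats. Pathway and marker genes were represented by the probe set of highest mean. The rule for names took all members, Nfkbia and, per list, every gene past the threshold and the 3 with the smallest p. Members and lists were chosen with earlier results of these data known, so no list was tested. The fit was tested on simulated data. Alternatives were left-out arrays, the repeat number, other normalizations, probe set choices, variance models and tissue covariates. Repeat numbers were not taken to pair animals. Figures used matplotlib 3.10.9.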

Additional observations from a re-analysis of the deposited data

How the results depend on the processing

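No member and no pathway gene passed the adjusted threshold of 0.05 (limma) under any alternative run, or one of 0.1 in the fit of the report. The count of separated members, 4 in the report, was 2 with 1 probe set per gene, 3 after another quantile normalization and 4 to 7 with 1 array left out, where smaller groups separate more readily. Their median difference of 0.016 was 0.025 without the dimmest 40%, 0.034 and 0.027 with the choroid plexus and meninges covariates, and 0.0080 to 0.031 with 1 array left out. The count of called Nfkbia probe sets, 4 in the report, was 2 under the meninges, 3′ to 5′ and pericyte covariates, 0 with the choroid plexus covariate and 1 to 4 with 1 array left out. It was also 0 with 1 probe set per gene and without moderation, neither of which alters a difference (-1.40 to -1.83 for the 4). The pericyte covariate, and leaving out control 1 and deficient 2 together (0 Nfkbia probe sets, 6 separated members), were chosen after seeing the data. As a replicate block, the repeat number gave 0 members and 2 Nfkbia probe sets. Same-numbered arrays had deviations that correlated at 0.031, 0.29 and 0.15, not all above 0.1, and differently numbered ones at -0.29 to 0.23. The submitters describe 3 pairs of littermates, but no label says that a repeat number marks a pair, so the main comparison left the litters unpaired. Causes of these shifts were not tested.

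Under alternatives other than leaving out 1 array, 31 member values changed sign and 320 did not. Of these alternatives, the repeat block, probe set choices, the variance trend and the model without moderation cannot alter a difference. Part of the 320 was thus fixed in advance. With 1 array left out, 29 values changed sign and 121 did not. With array weights Tgfbr1 1420894_at was -0.0022, Smad3 1454960_at -0.025, Smad3 1450471_at 0.032 and Smad7 1423389_at 0.0076. With the choroid plexus covariate Tgfb3 was 0.086, Tgfbr1 1420894_at -0.037, the same Smad3 pair -0.0015 and 0.012, Smad4 1422486_a_at 0.015 and Smad6 -0.056. With the meninges covariate Tgfb1 1445360_at was -0.091, Tgfbr2 1422019_at 0.020, the Smad3 pair -0.032 and 0.027, and Smad7 1423389_at 0.058. With the 3′ to 5′ covariate Tgfb1 1445360_at was -0.032, the Smad3 pair -0.011 and 0.028, and Smad7 1423389_at 0.027. With the pericyte covariate they were -0.030, -0.010, 0.0022 and 0.020, and Tgfbr2 1422019_at was 0.012. Without control 1 and deficient 2 together Tgfb1 1445360_at was -0.031, Tgfb2 1423250_a_at -0.030, Tgfb2 1438303_at -0.022, Tgfbr1 1420895_at -0.0087, Tgfbr2 1425444_a_at 0.032, Tgfbr3 1425620_at 0.036, Smad3 1450471_at 0.0036 and Smad7 1423389_at 0.034. With 1 array left out the members with a change of sign ranged as follows. Among Tgfb ligand probe sets this was Tgfb1 1445360_at from -0.028 to 0.17, Tgfb2 1423250_a_at from -0.042 to 0.12, Tgfb2 1450923_at from -0.013 to 0.026, Tgfb2 1450922_a_at from -0.097 to 0.14 and Tgfb3 1417455_at from -0.053 to 0.031. Among receptor probe sets this was Tgfbr1 1420894_at from -0.0057 to 0.050, Tgfbr1 1420893_a_at from -0.11 to 0.032, Tgfbr2 1425444_a_at from -0.17 to 0.094, Tgfbr2 1422019_at from -0.13 to 0.083 and Tgfbr3 1425620_at from -0.060 to 0.062. Among Smad probe sets this was Smad3 1454960_at from -0.012 to 0.069, Smad3 1450471_at from -0.078 to 0.036, Smad3 1450472_s_at from -0.051 to 0.0051, Smad4 1422486_a_at from -0.070 to 0.059, Smad4 1422485_at from -0.0054 to 0.050 and Smad7 1423389_at from -0.11 to 0.028.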
